A study of Mus musculus with 12 samples.

Results

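The 300 positions from 200 bp upstream to 100 bp downstream of the transcription start site (TSS) were taken from mean profiles of acetylation of histone H4 at lysine 12 (H4K12ac) and of input chromatin in mouse brain nuclei. They were chosen by position alone, from -200 to 100 with no position 0, and are 300 of the 4001 positions in each of 12 profiles. The stretch covers the promoter upstream of the start and the first bases of the transcript. Each value is the authors' normalized mean signal over many TSS, so no gene can be read from it, and no marker gene was there to check the labelled nuclei against. All signal values below are 1000 times those deposited.

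Chromatin immunoprecipitation and sequencing (ChIP-seq) had been done on neuronal and on non-neuronal nuclei of wild-type (WT) C57B/6JRj mice, and the headers of the files give CA1, part of the hippocampus, as the region. Each population came from mice of 3 months on vehicle (young below), of 20 months on vehicle (aged vehicle) and of 20 months on SAHA (aged SAHA). Vehicle was 18 g of cyclodextrin per litre of water, and SAHA (vorinostat, an inhibitor of histone deacetylases) was 0.67 g per litre in that same vehicle, so all animals received cyclodextrin. Every group, of 6 in all, was represented by 1 ChIP library and its own input, meaning sonicated chromatin that never met the antibody. The sources used here do not say how the nuclei were separated or whether animals were pooled.

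At active promoters the DNA just upstream of the start is bound by transcription factors and the polymerase machinery and carries few nucleosomes, whereas positioned nucleosomes stand on either side. A histone mark can be found only where there are nucleosomes, so profiles of acetylated histones commonly show a dip over this stretch between an upstream shoulder and a larger downstream peak. The acetyl group of H4K12ac is removed by histone deacetylases, and the mark has been studied in the hippocampus in connection with ageing and memory. An input shows how the DNA itself was sheared, amplified and mapped, so each ChIP value is given beside it.

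Promoter DNA changes in base composition over these positions. Among 32841 RefSeq promoters of 27018 mouse genes (assembly GRCm38.p6), which need not be the authors' set of TSS, the share of G and C rose from 51.3% in the bases from -200 to -151 to 56.4% from -50 to -1, and was 56.7% from 1 to 50. The CpG dinucleotide, the site of DNA methylation, went from 3.38 to 5.12 per 100 bases between those upstream bins and was 4.94 in the downstream one. Of these promoters, 32.3% were rich in CpG, here at least 50% G and C with an observed over expected CpG of at least 0.6 in the 200 bases upstream. TATAAA, a form of the TATA box, was found on either strand of those 200 bases in 9.96% of promoters, the CCAAT box in 29.4% and GGGCGG, a form of the GC box, in 31.1%. None of the 3 is contained in another, and a match is a run of letters, not a bound site. The shares expected from base composition alone were not computed. GGGCGG was in 68.2% of the CpG-rich promoters and 13.3% of the others, and TATAAA in 2.90% and 13.3%, whereas CCAAT was in 29.5% and 29.3%. The classes were set by the composition of the same 200 bases, so the contrasts of GGGCGG and TATAAA follow in part from that definition. CCAAT had its largest share, 12.5%, from -100 to -51, against 7.59% from -200 to -151. The stretches below show how different the averaged DNA can be. They are the 200 bases upstream of a protein-coding gene closest to the mean composition of each class, written 5′ to 3′ towards the start with CG in capitals, and neither promoter was measured singly.
Rhbdl1, CpG-rich, chr17:25837128-25837327, minus strand: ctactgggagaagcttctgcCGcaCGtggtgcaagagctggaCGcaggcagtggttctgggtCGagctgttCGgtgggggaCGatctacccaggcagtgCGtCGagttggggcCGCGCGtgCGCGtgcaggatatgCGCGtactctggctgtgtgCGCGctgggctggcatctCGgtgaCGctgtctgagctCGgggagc
Efhc2, CpG-poor, chrX:17319942-17320141, minus strand: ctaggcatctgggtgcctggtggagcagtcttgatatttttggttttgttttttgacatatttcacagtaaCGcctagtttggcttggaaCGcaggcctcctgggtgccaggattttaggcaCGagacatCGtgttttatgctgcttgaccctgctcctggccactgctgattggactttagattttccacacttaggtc
The Rhbdl1 stretch is 66% G and C with 20 CpG, and the Efhc2 stretch 48% with 4 CpG. A match to CCAAT on either strand starts at -30 in Efhc2, and none of the 3 motifs was matched in Rhbdl1.

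Depth set a small counting error. About 412000 to 741000 reads per ChIP library and 195000 to 319000 per input were centred on the 300 positions summed over TSS, if 1 step of the signal is 1 read. The counting error of a mean over the 300 positions was 0.126% to 0.164% for ChIP and 0.183% to 0.233% for input. It says nothing of variation between animals or preparations, and with a single library in each group there is no test of age or of SAHA. The 10 tests below treat the 6 libraries or pairs, all of different groups, as the replicates, and p-values were also adjusted over the 10. Tests over all 6 assume that the neuronal and non-neuronal libraries of a condition are independent, which was not tested. If both populations of a condition came from the same mice, those p-values overstate the replication.

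The inputs were first asked whether chromatin without antibody is itself raised at the TSS. All 6 were above their own flank, the outermost 10% of positions on each side, but by unequal amounts. In neuronal nuclei the rise over the flank was 2.61% (young), 12.5% (aged vehicle) and 3.47% (aged SAHA). In non-neuronal nuclei the rise was 9.76%, 1.71% and 13.9% in the same order. The high inputs were thus the aged vehicle one in neurons and the young and SAHA ones in non-neuronal nuclei, so neither age nor SAHA went with a rise in both populations. The mean log2 rise was 0.10 ± 0.072 (SD, n = 6 inputs), above 0 in 6 of 6 (p = 0.03125 in a two-sided exact sign-flip permutation test, which can go no lower with 6 libraries, adjusted p = 0.0391).

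**Figure D1:**
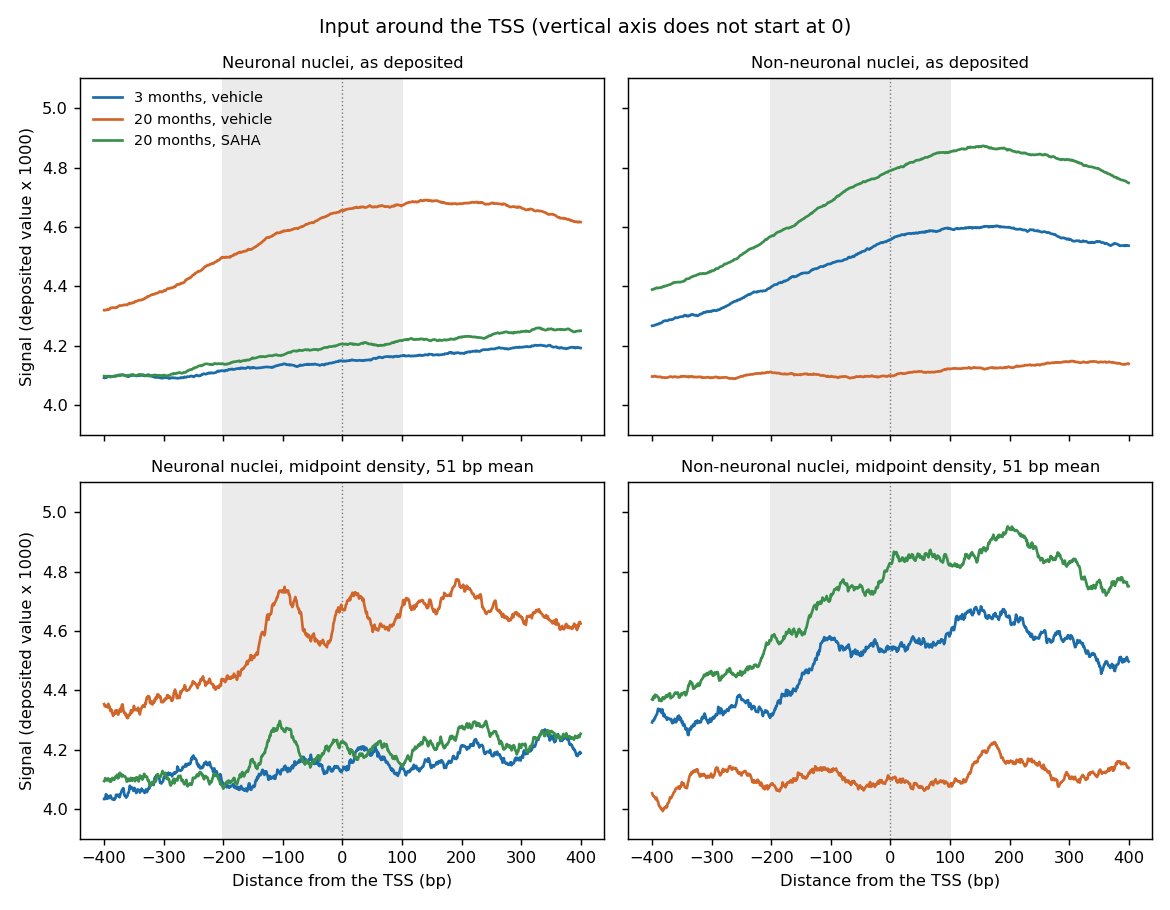
Input signal within 400 bp of the TSS (horizontal axis, bp from the TSS; vertical axis, deposited value multiplied by 1000, not starting at 0), as deposited in the upper panels and as midpoint density averaged over 51 bp in the lower ones. Lines are the 6 inputs, 1 per condition and population, and grey marks the 300 positions. The aged vehicle line is the highest in neuronal nuclei, with a mean of 4.61 over the grey stretch, and the lowest in non-neuronal nuclei, with 4.10.

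Within the stretch the input signal sloped rather than peaked, and the 3 high inputs already stood above their flank at -200. Their flank means were 4.09 (aged vehicle neuronal), 4.15 (aged SAHA non-neuronal) and 4.11 (young non-neuronal). In the aged vehicle neuronal input the signal was 4.50 at -200, 4.59 at -100, 4.65 at 1 and 4.67 at 100. The aged SAHA non-neuronal input went from 4.57 through 4.69 and 4.79 to 4.85 at the same positions, and the young non-neuronal one from 4.40 through 4.48 and 4.56 to 4.59. The other inputs were almost level. The young neuronal input was 4.12 at -200 and 4.17 at 100, the aged SAHA neuronal one 4.14 and 4.22, and the aged vehicle non-neuronal one 4.11 and 4.12. Between its ends the aged vehicle non-neuronal input had a shallow low point of 4.09 at -68, which differed from its signal at -200 by -0.510%. The slope therefore separated the same 3 inputs that stood highest over their flank, with gains from end to end of 3.89% to 6.21%, against 0.260% to 1.89% in the other 3. The share of G and C in RefSeq promoters also rises along these positions, and its part in the slope of the inputs was not tested.

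Compared with the stretch from -1000 to -201, the inputs were higher over these positions by 0.939% to 10.02% (mean log2 0.076 ± 0.053, SD, n = 6, above 0 in 6 of 6, exact sign-flip permutation p = 0.03125, adjusted p = 0.0391). Compared with the stretch from 101 to 500 they were lower, by a nearly equal amount in each library, with differences of -1.49% to -0.911% (mean log2 -0.017 ± 0.0034, SD, n = 6, below 0 in 6 of 6, exact sign-flip permutation p = 0.03125, adjusted p = 0.0391). No input had its highest position inside the 300. The highest point lay at 141, 155 and 178 in the aged vehicle neuronal, aged SAHA non-neuronal and young non-neuronal inputs, and at 331, 333 and 589 in the aged SAHA neuronal, young neuronal and aged vehicle non-neuronal ones.

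H4K12ac was raised over these positions in every ChIP library, but less than just downstream. The mean ChIP signal of the young, aged vehicle and aged SAHA libraries was 11.6, 9.64 and 11.0 in neuronal nuclei, and 13.0, 11.6 and 12.2 in non-neuronal nuclei. Over its own flank the ChIP signal stood 126%, 88.9% and 117% higher in neuronal nuclei and 120%, 103% and 109% higher in non-neuronal nuclei. On both measures the aged vehicle library was the lowest of each population.

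Divided by its own input, the ChIP signal over the 300 positions was 2.80-fold, 2.09-fold and 2.62-fold in the neuronal libraries in that order. The non-neuronal folds were 2.87, 2.82 and 2.58. In the flank the ChIP signal already stood 1.25-fold to 1.43-fold over input, so part of these folds was not particular to the 300 positions. Taken relative to the flank fold of the same pair, the log2 fold averaged 0.97 ± 0.14 (SD, n = 6), above 0 in 6 of 6. Without that step the log2 fold averaged 1.39 ± 0.17 (SD, n = 6) and exceeded 0 in 6 of 6 pairs (exact sign-flip permutation p = 0.03125, adjusted p = 0.0391). It exceeded that of the stretch from -1000 to -201 by 0.29 ± 0.11 in log2, and lay below that of the stretch from 101 to 500, the difference being -0.23 ± 0.014 (SD, n = 6 pairs each, all pairs in 1 direction, exact sign-flip permutation p = 0.03125, adjusted p = 0.0391 for each). The drop relative to the downstream stretch varied little, from -0.24 to -0.21, whereas the gain over the upstream stretch ran from 0.17 to 0.45. That gain was 0.45 and 0.41 in the young and aged SAHA neuronal pairs and 0.17 to 0.29 in the other 4 pairs.

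**Figure D2:**
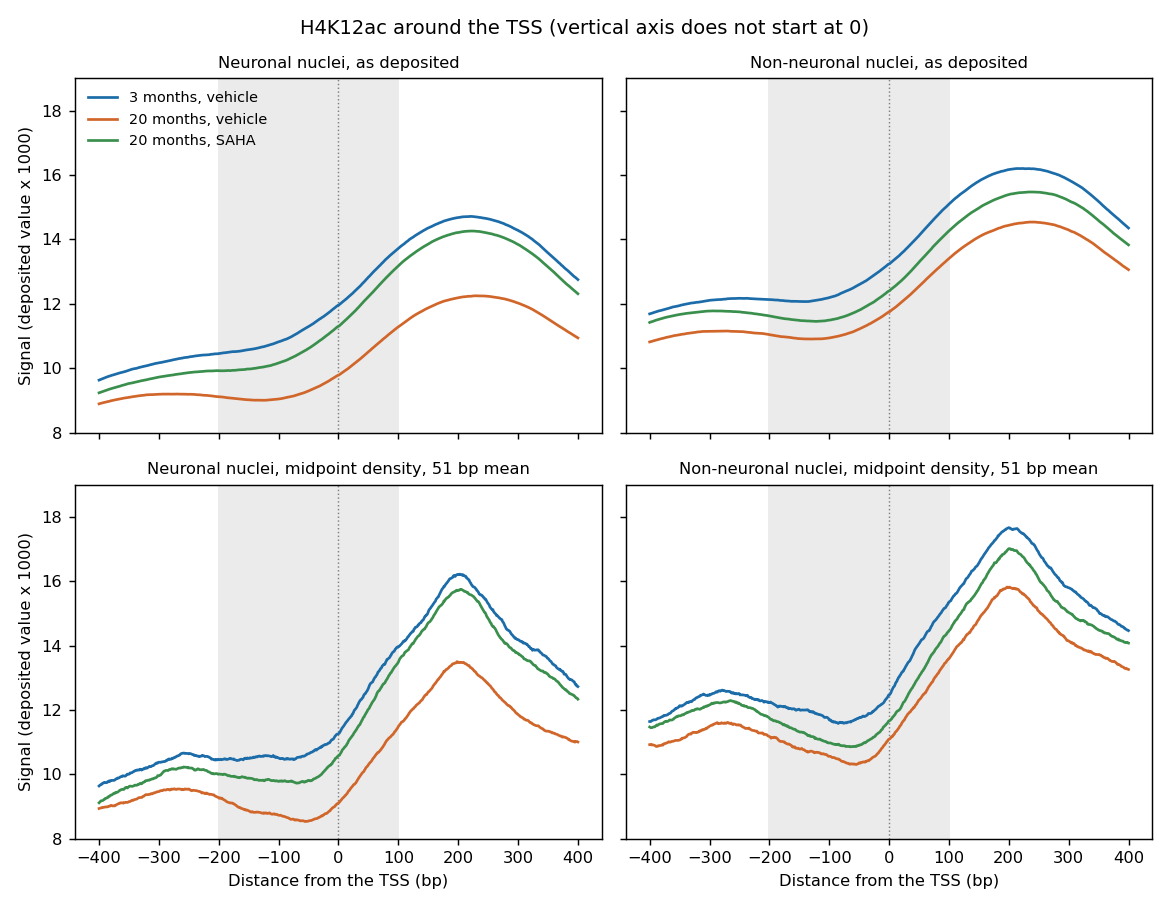
H4K12ac signal within 400 bp of the TSS (horizontal axis, bp from the TSS; vertical axis, deposited value multiplied by 1000, not starting at 0), as deposited above and as midpoint density averaged over 51 bp below. Lines are the 6 ChIP libraries, 1 per condition and population, and grey marks the 300 positions. The deposited lines are nearly level at the upstream end and then climb, whereas the midpoint density has its low point at -85 to -55 in 5 libraries and at -169 in the young neuronal one.

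The deposited ChIP profiles were nearly level over the upstream part of the stretch and climbed through the TSS. In young neuronal nuclei the signal was 10.5 at -200, 10.6 at -150, 10.8 at -100, 11.3 at -50, 11.97 at 1, 12.8 at 50 and 13.7 at 100, rising from each of these positions to the next. In the aged vehicle neuronal library the same positions read 9.12, 9.02, 9.05, 9.30, 9.79, 10.5 and 11.3, with a shallow low point at -125. The aged SAHA neuronal library read 9.92, 9.98, 10.2, 10.6, 11.3, 12.2 and 13.2, again without a clear low point.

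The non-neuronal libraries all had a low point inside the stretch. The young one read 12.1 at -200, 12.1 at -150, 12.2 at -100, 12.6 at -50, 13.2 at 1, 14.1 at 50 and 15.1 at 100. The aged vehicle one read 11.0, 10.9, 10.9, 11.2, 11.8, 12.5 and 13.4, and the aged SAHA one 11.6, 11.5, 11.5, 11.8, 12.4, 13.3 and 14.3. The lowest positions were -138, -130 and -122, and differed from the signal at -200 by -0.517%, -1.24% and -1.46%, against -1.27% in the aged vehicle neuronal library and -0.032% in the aged SAHA neuronal one. These are single positions picked as extremes, so they carry no test.

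A measure that picks no extreme was the sag, the percent by which the mean over the stretch lies above (positive) or below (negative) the straight line joining its ends. A profile that is level and then climbs has a negative sag even without a low point. The ChIP sag in the 3 neuronal libraries, in the order young, aged vehicle and aged SAHA, was -4.17%, -5.58% and -5.11%, and in the 3 non-neuronal ones -4.79%, -5.22% and -5.58%, each with a counting error of 0.060 to 0.079 percentage points. The mean was -5.07% ± 0.53 (SD, n = 6), below 0 in 6 of 6 (exact sign-flip permutation p = 0.03125, adjusted p = 0.0391). In the deposited signal the inputs had almost none, with counting errors of 0.091 to 0.116 percentage points. Their sag was -0.016%, 0.469% and 0.135% in neuronal and 0.331%, -0.326% and 0.425% in non-neuronal nuclei in that order, with a mean of 0.170% ± 0.304 (SD, n = 6, above 0 in 4 of 6, exact sign-flip permutation p = 0.21875, adjusted p = 0.243). In midpoint density, described below, the line joined the means of the 25 positions inside each end. The input sag was then 0.974% and above 0 in 6 of 6 (exact sign-flip permutation p = 0.03125). With that line the deposited input sag was 0.150% and above 0 in 4 of 6, so the call depended on the treatment of read length. The sag of the ChIP profile divided by its own input was -5.15% ± 0.67 (SD, n = 6 pairs, exact sign-flip permutation p = 0.03125, adjusted p = 0.0391), close to that of ChIP alone, and its sign was the same in 6 of 6 pairs. The size of the sag depended on the window and on the read length. From -150 to 50 it was -2.85% for ChIP and -2.91% for the fold. With the line through the means of 25 positions it was -4.20% and -4.28% in the deposited signal, and -8.00% and -8.63% in midpoint density.

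The deposited signal blurs a dip of this size. Its steps showed that each read had been counted over 300 consecutive positions, as many as the stretch itself holds, so every position averages fragments centred up to 150 bp away. Reads were therefore also reduced to their midpoints, a treatment chosen after the profiles had been seen. The midpoint density, on the same scale, counts each read only at the centre of its 300 positions.

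In midpoint density the dip was deeper and lay closer to the TSS in 5 of the 6 ChIP libraries, all but the young neuronal one. Fragments centred from -100 to -51 were compared with those on the upstream shoulder, from -300 to -251. In neuronal nuclei H4K12ac was 10.5 on the shoulder and 10.5 in the dip of the young library, 9.55 and 8.60 in the aged vehicle one, and 10.2 and 9.76 in the aged SAHA one. In non-neuronal nuclei the pairs of values were 12.6 and 11.6, 11.6 and 10.4, and 12.2 and 10.9. The young neuronal library thus had no dip beyond counting error, at -0.349% ± 0.78 (counting error). The aged vehicle and SAHA neuronal libraries had dips of -9.90% ± 0.55 and -3.87% ± 0.62, and the non-neuronal ones of -7.95% ± 0.55 (young), -10.4% ± 0.62 (aged vehicle) and -11.1% ± 0.54 (aged SAHA). The same stretches of the deposited signal differed by 7.48%, -0.515% and 5.77% in neuronal and by 1.85%, -0.871% and -1.29% in non-neuronal nuclei. The sign thus turned in 3 libraries with the treatment of read length, though in the young neuronal one only to a value within counting error. These stretches were chosen from the profiles, so the dips are descriptions without a test.

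The low point of the midpoint density, averaged over 51 bp, was at -56 and -70 in the aged vehicle and SAHA neuronal libraries and at -85, -55 and -64 in the 3 non-neuronal ones. In the young neuronal library it was at -169, on a nearly flat stretch where the lowest value was 10.4. From the dip to the positions 51 to 100 the midpoint density of H4K12ac climbed by 28.2%, 26.6% and 31.2% in neuronal and by 27.2%, 24.9% and 26.9% in non-neuronal nuclei, with counting errors of 0.726 to 0.946 percentage points. The climb differed less between libraries than the dip did.

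In midpoint density the inputs did not share the dip beyond about 1 counting error. Their midpoint density from -100 to -51 was 6.91% ± 1.2 above the shoulder in the aged vehicle neuronal input, 4.68% ± 1.2 in the young non-neuronal one and 6.90% ± 0.97 in the aged SAHA non-neuronal one (counting errors). It was within about 1 counting error of the shoulder in the young neuronal input (0.719% ± 1.1) and the aged vehicle non-neuronal one (-0.892% ± 0.89), and 2.44% ± 1.1 above it in the aged SAHA neuronal one. The aged vehicle neuronal input read 4.45, 4.65, 4.69, 4.55, 4.73 and 4.61 over the 6 bins of 50 positions, each with a counting error of at most 0.037. The aged SAHA non-neuronal input read 4.58, 4.69, 4.76, 4.73, 4.84 and 4.85, and the young non-neuronal one 4.40, 4.51, 4.53, 4.57, 4.53 and 4.55. The first of the 6 bins, from -200 to -151, was the lowest in all 3. From -100 to -51, input fragments were thus as frequent as on the shoulder, within about 1 counting error, or more frequent. Whether those fragments carry nucleosomes was not measured.

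**Figure D3:**
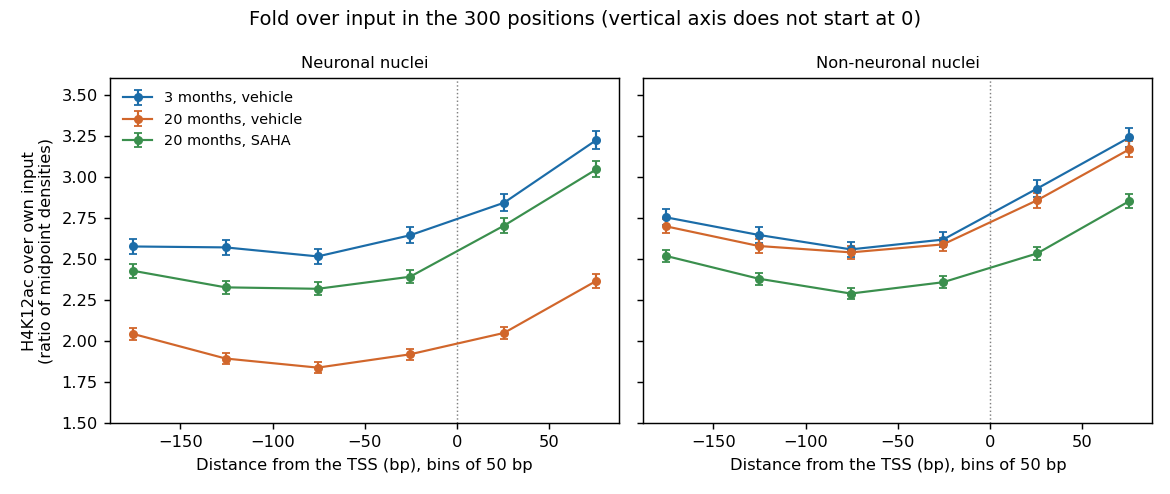
H4K12ac over own input in midpoint density (vertical axis, a ratio, not starting at 0) in 6 bins of 50 positions (horizontal axis, bp from the TSS). Points are 1 ChIP library over 1 input, with bars of 1.96 counting errors on either side. The lowest bin is that from -100 to -51 in all 6 pairs, with 1.84 in the aged vehicle neuronal pair and 2.56 in the young non-neuronal one, and the highest that from 51 to 100.

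Division by input in midpoint density gave its lowest bin from -100 to -51 in each of the 6 pairs. The fold there was 2.51, 1.84 and 2.32 in the neuronal pairs (young, aged vehicle, aged SAHA) and 2.56, 2.54 and 2.29 in the non-neuronal ones, with counting errors of 0.017 to 0.024. In some pairs a neighbouring bin was almost as low. The aged SAHA neuronal pair had 2.32 ± 0.020 against 2.33 ± 0.020 from -150 to -101, and the aged vehicle non-neuronal one 2.54 ± 0.021 against 2.58 ± 0.021 (counting errors), so these counts do not settle the exact bin. From -200 to -151 the fold was 2.58, 2.04 and 2.43, and 2.75, 2.70 and 2.52. From 51 to 100 it was 3.22, 2.37 and 3.05, and 3.24, 3.17 and 2.85. The fold was highest in that last bin in 6 of 6 pairs. In each of the 6 bins the aged vehicle neuronal pair had the lowest fold of all pairs.

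With age, from 3 to 20 months on vehicle, neuronal H4K12ac was lower at 100% of the 300 positions. Each read was counted over 300 positions, so neighbouring positions share reads and are not separate observations. The shares of positions in the other age and SAHA comparisons below carry the same limit. The mean was 9.64 in the aged vehicle and 11.6 in the young library, which is -16.8%, or a log2 of -0.27 with a 95% counting interval of -0.27 to -0.26. The deficit grew towards the start, from -12.8% at -200 to its largest size, -18.2%, at 3. The inputs differed the other way, 4.61 against 4.14 (log2 0.15), so the fold over own input differed by a log2 of -0.42 (95% counting interval -0.43 to -0.41). In midpoint density the deficit was -13.3% ± 0.61 from -200 to -151 and -20.0% ± 0.56 from -50 to -1 (counting errors). It was smaller on either side, at -6.18% from -1000 to -201 and -15.6% from 101 to 500 in the deposited signal, and -0.647% in the flank.

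The dip itself also differed with age in neuronal nuclei, where aged vehicle minus young was -9.55 ± 0.96 percentage points, a deeper dip with age (counting error). In non-neuronal nuclei it was -2.46 ± 0.83 points. For the sag the differences were -1.40 ± 0.10 and -0.422 ± 0.093 points. The neuronal comparison also sets the ChIP library with the largest step, of 1 in 36400000, against that with the smallest, of 1 in 65700000. The part of that gap in the difference was not tested.

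Non-neuronal H4K12ac was likewise lower with age at 100% of positions, with a mean of 11.6 against 13.0, which is -10.6% (log2 -0.16, counting interval -0.17 to -0.16). It varied little along the stretch, from -8.97% at -200 to -11.3% at 87. The inputs differed in the same direction and by nearly as much, 4.10 against 4.51 (log2 -0.14). The fold over own input therefore differed by a log2 of only -0.025 (95% counting interval -0.035 to -0.015). Outside the stretch the ChIP difference was -6.70% from -1000 to -201, -9.85% from 101 to 500 and -3.21% in the flank.

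**Figure D4:**
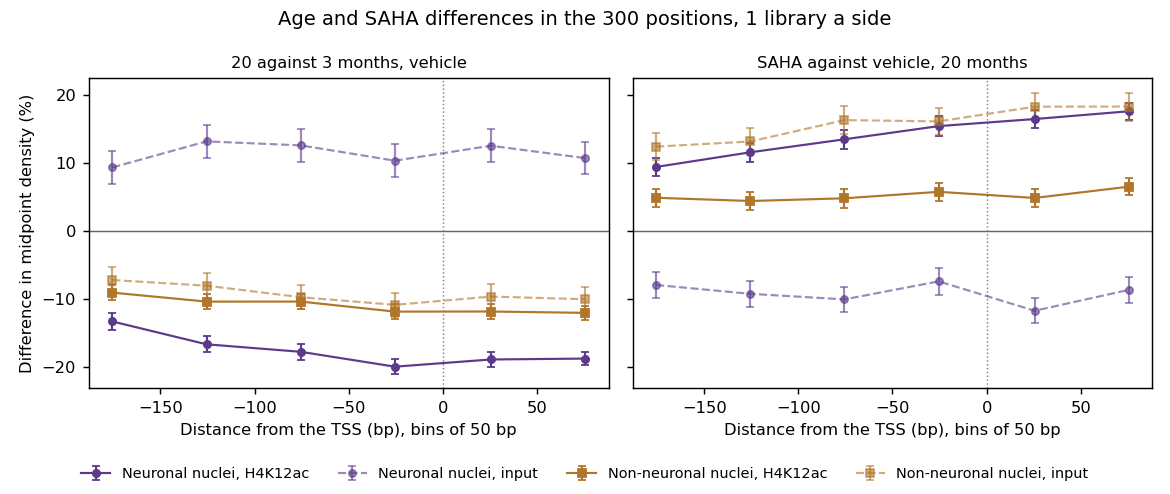
Percent difference in midpoint density (vertical axis) in 6 bins of 50 positions (horizontal axis, bp from the TSS) for 20 against 3 months on vehicle (left) and SAHA against vehicle at 20 months (right). Each point compares 1 library with 1 other, with bars of 1.96 counting errors on either side, solid lines for H4K12ac and dashed lines for input. With age, H4K12ac lies below 0 in both populations, by up to 20.0% in neurons, while the inputs lie on opposite sides of 0. With SAHA, H4K12ac lies above 0 in both populations and the inputs again lie on opposite sides.

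SAHA was set against vehicle in mice of 20 months. This comparison shares the aged vehicle libraries with the age comparison, so the values of both stand side by side and are not independent. Neuronal H4K12ac was higher with SAHA at 100% of positions, with a mean of 11.0 against 9.64, which is 13.8% (log2 0.19, counting interval 0.18 to 0.19). The gain grew steadily from 8.79% at -200 to 16.8% at 100. In midpoint density it was 9.40% ± 0.69 in the first bin and 17.6% ± 0.65 in the last (counting errors). The SAHA input was lower, 4.18 against 4.61 (log2 -0.14), and the fold over own input differed by a log2 of 0.33 (95% counting interval 0.31 to 0.34). The dip was 6.02 ± 0.83 percentage points shallower with SAHA and the sag less negative by 0.465 ± 0.089 points. Beyond the stretch the ChIP difference was 2.80% from -1000 to -201 and 14.6% from 101 to 500, and -1.05% in the flank.

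Non-neuronal H4K12ac was also higher with SAHA at 100% of positions, with a mean of 12.2 against 11.6, which is 5.48% (log2 0.077, counting interval 0.071 to 0.082). The gain was nearly even, from 5.01% at -122 to 6.43% at 94, and nearly the same from -1000 to -201 (4.80%) and from 101 to 500 (6.28%). The SAHA input was higher than the vehicle input by more than the ChIP library was, 4.73 against 4.10 (log2 0.21). The fold over own input was therefore lower with SAHA, by a log2 difference of -0.13 (95% counting interval -0.14 to -0.12), and the direction depended on the input. The dip differed by -0.674 ± 0.82 points, which is within counting error, and the sag by -0.358 ± 0.093 points.

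Neuronal and non-neuronal nuclei were compared within each condition. The ChIP signal of neuronal nuclei was lower over the 300 positions in all 3 conditions, the difference being -10.6% between the young, -16.9% between the aged vehicle and -10.3% between the aged SAHA libraries. At 3 months and with SAHA the gap narrowed along the stretch, from -13.1% and -13.9% in the bin from -200 to -151 to -9.09% and -7.83% from 51 to 100. In the aged vehicle libraries it stayed between -17.4% and -16.0%. The mean log2 difference of ChIP alone was -0.20 ± 0.062 (SD, n = 3 pairs, exact sign-flip permutation p = 0.25, which 3 pairs cannot go below).

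Divided by own input, the log2 difference between populations was -0.038 (young), -0.43 (aged vehicle) and 0.020 (aged SAHA), with a mean of -0.15 ± 0.25 (SD, n = 3 pairs, above 0 in 1 of 3, exact sign-flip permutation p = 0.5, adjusted p = 0.50). Leaving out the aged vehicle libraries gave a mean of -0.0088, and dividing each library by its own flank first turned the direction, to 0.024. Along the stretch the fold was lower in neurons at the upstream end and not at the downstream end in the young and SAHA pairs. The log2 difference was -0.10 from -200 to -151 and 0.003 from 51 to 100 at 3 months, and -0.069 and 0.086 with SAHA. In the aged vehicle pairs it was -0.41 and -0.43.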

How the data were processed

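H4K12ac ChIP and input profiles of 12 libraries were analysed; the APP/PS1-21 mice that the series names were not analysed here. Per the file headers, the deposited values are a normalized mean signal at each position from -2000 to 2001 around the TSS. Per the submitters' processing notes, CASAVA 1.8.2, Bowtie2 and mm10 were used. The sources used here do not give the divisor, the TSS set or the treatment of duplicate reads. Per the labels' protocols, chromatin was sonicated to fragments of about 300 bp. Groups came from the source names, and ChIP and input were paired by the titles.

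Neighbouring values differed by whole multiples of 1 step per library at 100% of positions (tolerance 0.1 of a step). The second differences (differences between neighbouring differences) were most negatively autocorrelated at a lag of 300, so the step was taken as 1 read over 300 positions. Counting errors rest on the step, that length and an over-dispersion of 1.53 to 1.96, and are a lower limit. Midpoint density was recovered by summing differences 300 positions apart, with the level set from 700 positions at either end. This was tested on data simulated at the level and depth of the 12 profiles, with independent reads over exactly 300 positions, as the recovery assumes. The dip lay within 2 counting errors of the simulated one in 58 of 60 draws. Such draws cannot show whether the real reads meet those assumptions. Tests were exact two-sided sign-flip permutation tests, adjusted by Benjamini-Hochberg over 10.

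The positions named are the window ends, each 50th position, bins of 50 and the extremes, the adjacent stretches and the flank of 400 positions on each side. Alternatives were other windows, flanks, sag lines, inputs, populations and each pair left out. Midpoint density and the exchange of the aged vehicle inputs were added after the profiles had been seen. The positions, measures and alternatives were chosen with earlier results of these data known. Promoter sequences are RefSeq's, GRCm38.p6. Python 3.11.15, NumPy 2.4.6, pandas 2.3.3 and Matplotlib 3.10.9 were used.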

Additional observations from a re-analysis of the deposited data

Results flagged for a closer look

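In 9 comparisons the neuronal and the non-neuronal libraries differed in opposite directions. Of the others checked, the age differences of H4K12ac, its fold over own input, its sag and its midpoint dip had the same direction in both populations. So did the SAHA difference of H4K12ac alone. All use the aged vehicle libraries, so they are not independent of one another. None of these differences was tested, since there is 1 library per group. The age difference of the input was 0.15 (log2) in neuronal and -0.14 in non-neuronal nuclei, 0.29 apart. The SAHA difference of the input was -0.14 and 0.21, which is -0.34 apart. The SAHA difference of H4K12ac over own input was 0.33 and -0.13, which is 0.45 apart, whereas that of H4K12ac alone was above 0 in both populations, at 0.19 and 0.077. With SAHA the sag of H4K12ac was less negative in neuronal and more negative in non-neuronal nuclei, 0.823 percentage points apart. The midpoint dip likewise was shallower with SAHA in neuronal nuclei and deeper, within counting error, in non-neuronal ones, 6.70 points apart. That dip uses a shoulder outside the 300 positions. The sag of the input differed with age by 0.484 points in neuronal and -0.658 in non-neuronal nuclei, 1.14 apart, and with SAHA by -0.334 and 0.751, which is -1.08 apart. The midpoint contrast of the same stretches in the inputs differed with age by 6.20 and -5.58 points, 11.8 apart, and with SAHA by -4.47 and 7.79, which is -12.3 apart.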

How the results depend on the processing

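Of 123 alternative values of the 10 tests, 57 kept their direction and their side of the threshold, 64 kept their direction with a p above 0.05, 1 crossed to the other side and 1 reversed. The 64 all come from fewer pairs, with which an exact permutation test cannot reach the threshold (0.25 is the smallest p with 3 pairs and 0.0625 with 5). Some of the 57 could not have crossed it either, namely the population difference and the input sag in fewer libraries. Division by the flank cancels where the fold is set against an adjacent stretch. Leaving out either pair of a condition gives the same population difference, so those values are repeats. For neuronal and non-neuronal nuclei alone, the mean log2 input rise was 0.086 and 0.12, against the upstream stretch 0.066 and 0.085 and against the downstream stretch -0.016 and -0.017. ChIP over input was 1.31 and 1.46, against upstream 0.35 and 0.24 and against downstream -0.23 and -0.22, the ChIP sag -4.95% and -5.20% and the fold sag -5.06% and -5.25%. With each pair left out in turn the input rise was 0.083 to 0.12, its difference from upstream 0.063 to 0.088 and from downstream -0.017 to -0.016. ChIP over input was then 1.36 to 1.45, against upstream 0.26 to 0.32 and against downstream -0.23 to -0.22, the ChIP sag -5.26% to -4.97% and the fold sag -5.36% to -5.00%. Other windows and midpoint density moved the sag further, to between -8.00% and -2.85% for ChIP and -8.63% and -2.91% for the fold, each with 6 of 6 below 0. In midpoint density the input sag was 0.974% (above 0 in 6 of 6, exact permutation p = 0.03125), and the population difference was 0.024 once each library was divided by its own flank.

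Of 32 alternative values of the age and SAHA differences over own input, 13 stayed within the counting interval, 15 moved in the same direction and 4 reversed. For ChIP alone and with 1 common input, which cancels, the neuronal and non-neuronal age differences were -0.27 and -0.16 and the SAHA differences 0.19 and 0.077, the last reversed. With input subtracted they were -0.57, -0.17, 0.43 and 0.0013, the last reversed. With the aged vehicle inputs exchanged they were -0.25, -0.19, 0.16 and 0.038, the last reversed. With division by the flank the age differences were -0.39 and -0.0044, and in midpoint density the neuronal one was -0.44. The cause of these moves was not tested. Counting error covers neither animals nor preparations, and the count of reads assumes that 1 step is 1 read.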
